A study of Mus musculus with 18 samples.

Results

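Transcripts of chemokines and inflammatory cytokines were followed in the substantia nigra of the mouse through 10 genes: Ccl2, Ccl3, Ccl4, Ccl5, Ccl6, Ccl12, Cxcl10, Cxcl16, Cx3cl1 and Il1b. They were taken by name, and all 10 have a row among the 55269 genes of the deposited table. RNA with poly-A tails was sequenced from 3 groups of 6 mice aged 3 months. The intact mice are labelled wild type and no treatment is named for them. The AAV-GFP mice carried an adeno-associated virus (AAV) vector for green fluorescent protein, and the AAV-SIRT3 mice one for SIRT3, a deacetylase of mitochondria. Tissue of the vector groups was taken a month after the virus was given. The labels name neither the serotype nor the promoter of the vectors, so the cells meant to carry them are not known here, and no sham injection is named for the intact mice.

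Chemokines are small secreted proteins that bind receptors on the surface of leukocytes and microglia and steer their movement along a gradient. In the healthy brain most inflammatory chemokines are transcribed at a very low level, whereas Cx3cl1 (fractalkine) is made by neurons as a membrane protein and acts on its receptor Cx3cr1 on microglia. Microglia, astrocytes and infiltrating leukocytes are the usual sources of the CC chemokines after injury or infection. Cxcl10 is a textbook target of interferon signalling, and Il1b encodes interleukin-1 beta, a cytokine that is released after cleavage by caspase-1.

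The upstream sequence of 3 genes is printed because the results that follow turn on them: Cxcl10 and Ccl12 were higher in the AAV-SIRT3 group than in intact mice, and Ccl3 was higher in both vector groups. Each run is the 250 bases before the transcription start in RefSeq (GRCm38.p6), 5′ to 3′ on the strand of the gene. Capitals mark matches to 3 motifs searched on both strands: the interferon-stimulated response element as GAAA repeated after a gap of any 2 bases, the NF-kB motif by its usual consensus, and the TATA box as TATAAA. No 2 marked matches overlap. The Cxcl10 run is chr5:92348890-92349139 (minus strand), the Ccl12 run chr11:82101595-82101844 (plus strand) and the Ccl3 run chr11:83649379-83649628 (minus strand).
Cxcl10: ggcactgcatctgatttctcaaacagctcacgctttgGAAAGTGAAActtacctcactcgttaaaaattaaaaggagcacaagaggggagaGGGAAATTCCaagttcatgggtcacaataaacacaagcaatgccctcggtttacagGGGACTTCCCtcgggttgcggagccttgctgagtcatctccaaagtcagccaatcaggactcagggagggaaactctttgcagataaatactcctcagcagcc
Ccl12: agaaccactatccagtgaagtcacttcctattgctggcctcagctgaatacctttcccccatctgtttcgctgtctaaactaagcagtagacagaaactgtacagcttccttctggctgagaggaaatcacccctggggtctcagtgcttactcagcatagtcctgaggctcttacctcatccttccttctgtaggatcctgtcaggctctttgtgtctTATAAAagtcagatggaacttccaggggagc
Ccl3: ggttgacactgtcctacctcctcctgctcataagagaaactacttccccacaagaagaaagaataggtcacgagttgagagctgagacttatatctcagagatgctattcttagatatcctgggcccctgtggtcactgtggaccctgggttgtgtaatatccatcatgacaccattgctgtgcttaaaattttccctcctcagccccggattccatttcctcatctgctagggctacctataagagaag
The Cxcl10 run holds 1 interferon-stimulated response element at -213 to -204 from the start and 2 NF-kB matches, at -159 to -150 and -103 to -94. The Ccl12 run holds a TATA box at -31 to -26, and the Ccl3 run holds none of the 3 motifs. Among 32851 RefSeq promoters of that length, 2.98% held the response element, 3.9% the NF-kB motif and 12.4% the TATA box. RefSeq promoters were matched for 6 of the 10 genes, these 3 and Ccl6, Cx3cl1 and Il1b. Ccl6 held none of the motifs, and Cx3cl1 and Il1b each held a TATA box alone. A match is a string of letters and not evidence that a factor binds there.

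In GENCODE M21 (GRCm38, the assembly that mm10 names) 7 of the 10 genes lie on chromosome 11. Ccl2 (chr11:82035571-82037453) and Ccl12 (chr11:82101845-82103400) are 64392 bp apart, and Ccl3 (chr11:83647844-83649355) and Ccl4 (chr11:83662584-83664683) are 13229 bp apart. Ccl5 (chr11:83525778-83530518) and Ccl6 (chr11:83587882-83593087) lie beside the Ccl3 and Ccl4 pair, and Cxcl16 is at chr11:70453983-70459984. The remaining genes are Cxcl10 (chr5:92346638-92348889), Il1b (chr2:129364570-129371139) and Cx3cl1 (chr8:94772009-94782427). On the opposite strand Cxcl10 overlaps Art3, Cxcl16 overlaps Zmynd15, Il1b overlaps Il1bos, Ccl6 overlaps E230016K23Rik and Ccl2 overlaps Gm17268. The library kit kept strand information, but the strand setting of the counting is not given in the sources used here, so reads of such pairs may have been shared. Art3 averaged 249, 260 and 268 normalised reads in intact, AAV-GFP and AAV-SIRT3 libraries, and Zmynd15 34.6, 38.4 and 33.2. Il1bos had 7, 9 and 17 reads per group against 23, 44 and 25 of Il1b. E230016K23Rik had 33, 30 and 33 reads, and Gm17268 was at 0 in all 18 libraries. How reads that fit several genes of the family were assigned is not given either.

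Depth was similar across the groups, with 47182420 to 64728400 reads assigned to genes per library. A count of 3 reads corresponds to 2.55 to 3.42 normalised reads, which is near the group medians of Ccl4, Ccl5 and Il1b in intact tissue and of Ccl2, Ccl4 and Il1b in AAV-SIRT3 tissue (1.54 to 4.37). No molecular identifiers were counted, so such floors cover counting error only. Sirt3 itself was 1824 ± 66.3 (SD, n = 6) normalised reads in intact, 1775 ± 92.4 with AAV-GFP and 1937 ± 79.4 with AAV-SIRT3. Its log2 difference between AAV-SIRT3 and AAV-GFP was 0.13 (limma adjusted p = 0.183), so the row of Sirt3 in this table gives little check of the group labels.

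Some libraries stood apart on genes of other tissues. The summed normalised reads of 8 thalamus markers were 56065, 60096 and 59405 in intact replicates 1, 3 and 5, below the 78483 to 99419 of the other intact libraries and the 82354 to 103892 of the vector groups. The sum of 7 choroid plexus markers was 49987 in intact replicate 2 and 44358 in AAV-GFP replicate 5, and at most 6014 in the other libraries. Anterior pituitary markers summed to 741 to 5429 in intact libraries and 239 to 807 in the vector groups. AAV-SIRT3 replicate 6 had the highest value of its group for 7 of the 10 genes, a sum of 542 over 5 B cell markers against at most 191 elsewhere, and the highest sum of interferon-response genes. The tests of the 10 genes were repeated without AAV-SIRT3 replicate 6, without the 2 libraries high in choroid plexus markers and without the 3 low in thalamus markers.

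Compared per kilobase of exon, Cx3cl1 was far above the other 9 genes, at 3956 ± 424 (SD, n = 6) normalised reads per kilobase in intact tissue. Ccl6 and Cxcl16 came next at 38.5 ± 7.90 and 38.4 ± 5.35, then Ccl12 at 29.8 ± 15.8 and Ccl3 at 15.6 ± 9.30. Cxcl10, Ccl2, Ccl5, Ccl4 and Il1b followed with means of 7.33, 6.77, 4.11, 2.94 and 1.99 per kilobase. Only Cx3cl1 was separated from its neighbour, since the library ranges of every later pair in this order overlapped. In AAV-GFP tissue Ccl4 stood at 20.5 ± 11.1 and Ccl2 at 17.0 ± 6.41 per kilobase, both above Cxcl10 and Ccl5 in the order. In AAV-SIRT3 tissue Ccl12 took the place after Cx3cl1 at 71.3 ± 31.1 per kilobase, and Cxcl10 and Ccl5 stood at 27.9 ± 23.7 and 25.8 ± 22.8. The library ranges of all pairs of neighbours after Cx3cl1 overlapped in these groups too.

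**Figure D1:**
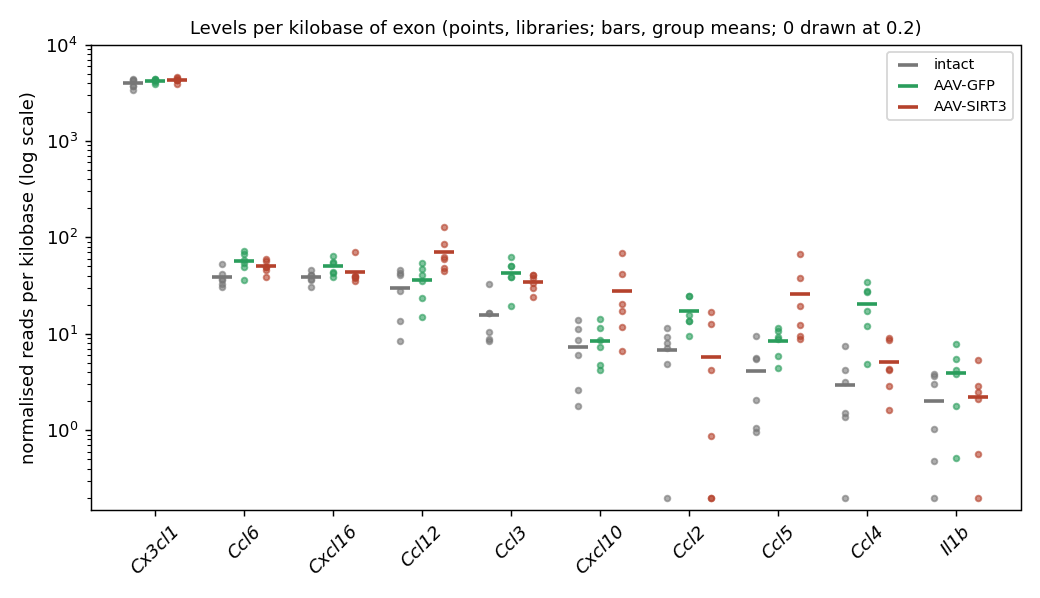
Levels of the 10 genes in normalised reads per kilobase of exon on a log axis, with 1 point per library (6 per group), a bar at each group mean and values of 0 drawn at 0.2. The Cx3cl1 means lie between 3956 and 4336, and the ranges of the other neighbouring genes overlap.

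Cxcl10, Ccl5 and Ccl12 were highest in the AAV-SIRT3 group, where they were 3.81-fold, 6.29-fold and 2.39-fold the intact mean. Ccl4 and Ccl2 were highest in the AAV-GFP group, at 6.99-fold and 2.52-fold the intact mean. Ccl2 did not pass the test, and the call of Ccl4 held in 2 of 18 fits with a library left out. The means of Ccl3, Ccl6, Cxcl16 and Il1b were also highest in the AAV-GFP group. None of the 10 genes passed the test between the vector groups. Ccl3 rose in both vector groups, and Ccl6, Cxcl16, Cx3cl1 and Il1b passed the test in none of the 3 comparisons. In bulk tissue, more cells of a type and more RNA per cell cannot be told apart. The limma p-values rest on a spread between mice that was pooled over the 3 groups of 6 and moderated over all genes in the fit. Both vector groups were compared with the same intact libraries, so the comparisons are not independent.

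Of the 10 genes, 8 had at least 10 normalised reads in at least 6 of the 18 libraries and entered the limma fit of log2(value + 1) over 19442 genes. Ccl5 met that minimum only through 2 AAV-GFP and 4 AAV-SIRT3 libraries. Ccl2 met it mostly through the 6 AAV-GFP libraries, with 2 of each other group. Ccl4 and Il1b were below it and were tested in a fit over all 38539 genes with a value above 0. For low genes, fold changes on this scale can be smaller or larger than the ratio of the group means. Ccl4 in AAV-GFP was 6.99-fold the intact mean, with a fitted log2 difference of 2.32. Ccl2 in AAV-SIRT3, where 2 libraries had 0 reads, was 0.337-fold the AAV-GFP mean, with a fitted -2.31. In AAV-SIRT3 against intact tissue, 4 of the 8 genes in the fit passed an adjusted p of 0.05, all higher. Over all genes 21.7% passed in either direction and 11.3% were higher. The 4 include Ccl5, which was in the fit only through groups where it was higher, so this count beside these shares is no test. In AAV-GFP against intact tissue 1 of 8 passed, higher, against 1.84% of all genes in either direction and 0.823% higher. In AAV-SIRT3 against AAV-GFP none passed, against 0.113% of all genes. For no gene of the 10 did the ranges of any compared groups fail to overlap, where 0.751% (AAV-SIRT3 against AAV-GFP), 1.86% (AAV-GFP against intact) and 9.33% (AAV-SIRT3 against intact) of all genes in the fit did so.

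**Figure D2:**
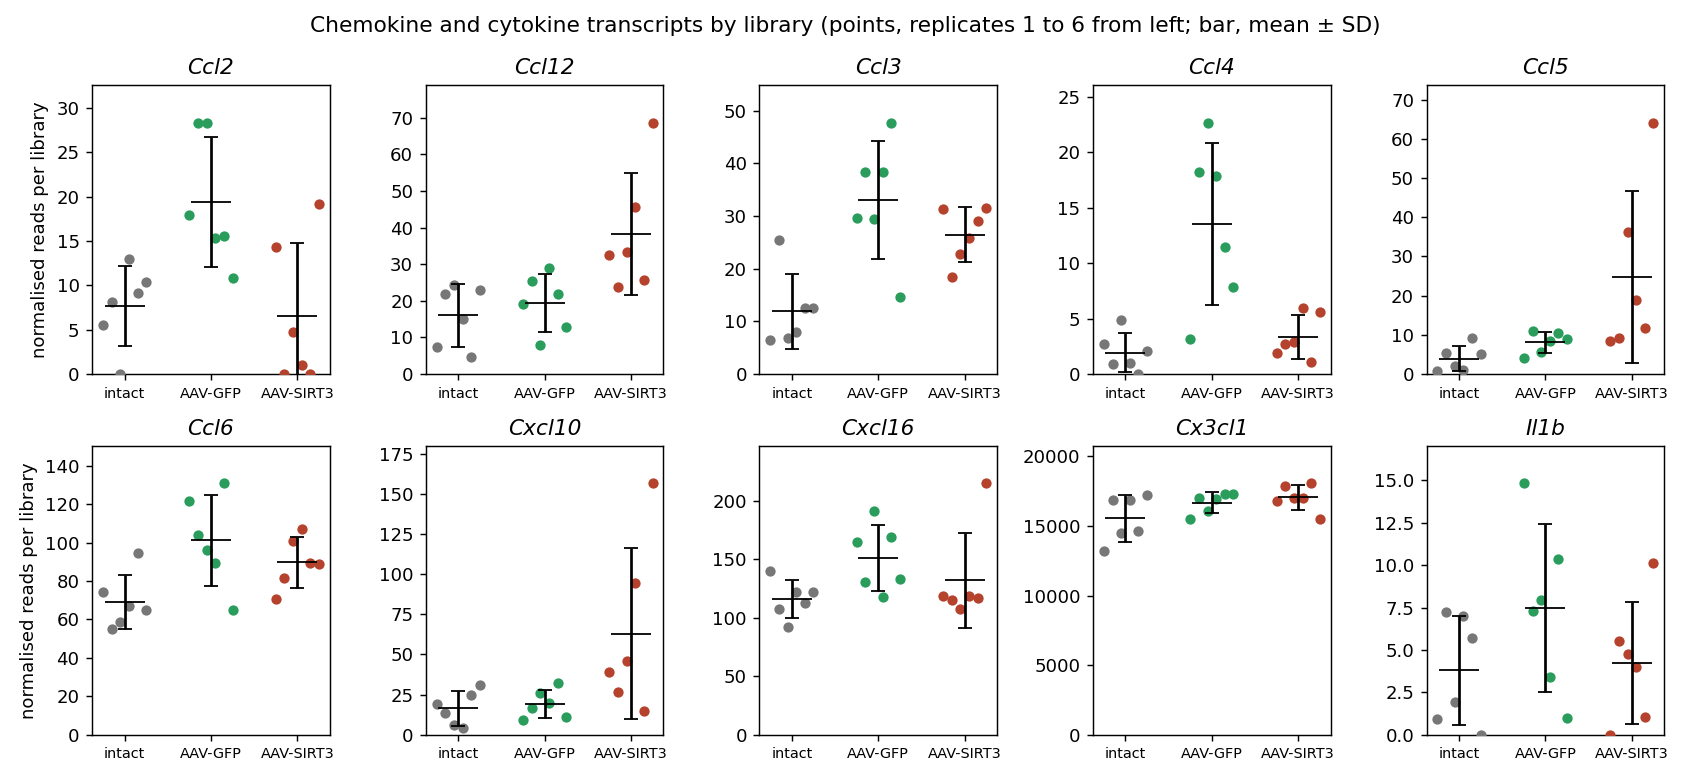
Normalised reads (linear axes from 0) of each gene in intact, AAV-GFP and AAV-SIRT3 libraries, with replicates 1 to 6 from left to right within a group and a bar at the mean ± SD (bars that reach below 0 end at the axis). AAV-SIRT3 replicate 6 is the highest point of its group for 7 genes. Ccl2, Ccl3, Ccl4, Ccl6, Cxcl16 and Il1b are highest on average in AAV-GFP.

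Cxcl10, the interferon-induced ligand of Cxcr3 that attracts activated T cells, ran from 3.996 through a median of 16.4 to 31.3 normalised reads in intact libraries. It ran from 9.52 through 17.99 to 32.2 in AAV-GFP libraries, and from 15.1 through 42.4 to 156 in AAV-SIRT3 libraries. The intact and AAV-GFP values overlapped over most of their range, while 4 of the 6 AAV-SIRT3 libraries lay above every intact library. The rise over intact tissue was 1.75 on the log2 scale (SE 0.51, limma adjusted p = 0.0184; exact two-sided permutation p = 0.0260). Without AAV-SIRT3 replicate 6 the mean of 62.9 ± 53.3 (SD, n = 6) became 44.2 ± 30.4 (SD, n = 5), and the log2 difference of 1.41 had an adjusted p of 0.0507 in limma. Without intact replicate 4 the adjusted p was 0.0501 in limma. In the limma fit over all genes above 0 the rise of Cxcl10 over intact tissue had an adjusted p of 0.0413. There the call was weak, as it held in 2 of 18 fits with a library left out. Against AAV-GFP the log2 difference was 1.38 (95% interval 0.32 to 2.44, limma adjusted p = 0.216), so the test over all genes was not passed. Between AAV-GFP and intact tissue it was 0.37 (95% interval -0.69 to 1.43, limma adjusted p = 0.744).

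Ccl5 (RANTES), a chemokine made by T cells and by interferon-stimulated glia, had only 23 reads in all 6 intact libraries together, 50 in AAV-GFP and 144 in AAV-SIRT3. Its normalised reads ran from 0.915 through a median of 3.59 to 9.13 in intact, from 4.23 through 8.67 to 10.9 in AAV-GFP and from 8.57 through 15.3 to 64.1 in AAV-SIRT3 libraries. All but 1 of the AAV-SIRT3 libraries lay above the highest intact library, and replicates 3 and 6, at 36.2 and 64.1, carried much of the AAV-SIRT3 mean. The rise over intact tissue was 2.28 (SE 0.50, limma adjusted p = 0.00348; exact two-sided permutation p = 0.00433), and it passed the test with any 1 of the 18 libraries left out. No intact library reached the minimum for that fit, so the place of Ccl5 in it rested on the groups where it was higher. In the limma fit over all genes above 0, without that minimum, the adjusted p was 0.00882. There the call held in 26 of 27 alternatives, among them all 18 fits with a library left out, with adjusted p up to 0.0828. Without AAV-SIRT3 replicate 6 the log2 difference in the main fit was 1.94 (limma adjusted p = 0.0101). Against AAV-GFP it was 1.18 (95% interval 0.14 to 2.22, limma adjusted p = 0.273), and between AAV-GFP and intact tissue 1.10 (limma adjusted p = 0.233).

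Ccl12 and Ccl2 lie in the same cluster of chemokine genes, with Ccl7 and Ccl11 between them, and their products both bind Ccr2, the receptor that draws monocytes into tissue. Ccl12 ran from 4.56 through a median of 18.4 to 24.4 normalised reads in intact libraries, from 7.93 through 20.4 to 28.9 in AAV-GFP and from 23.9 through 32.9 to 68.6 in AAV-SIRT3. Of the AAV-SIRT3 libraries 5 of 6 were above all intact ones and 4 of 6 above all AAV-GFP ones. Ccl12 rose by 1.32 on the log2 scale over intact tissue (SE 0.39, limma adjusted p = 0.0194; exact two-sided permutation p = 0.00433). Without AAV-SIRT3 replicate 6 the log2 difference was 1.14 and the limma adjusted p 0.0515. In the limma fit over all genes above 0 the rise of Ccl12 over intact tissue had an adjusted p of 0.0487. There the call was weak, as it held in 3 of 18 fits with a library left out. Against AAV-GFP the log2 difference was 0.97 (95% interval 0.16 to 1.77, limma adjusted p = 0.247), and between AAV-GFP and intact tissue 0.35 (limma adjusted p = 0.666).

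Ccl2, the main monocyte attractant, had its values the other way round. It ran from 0 through a median of 8.64 to 12.99 normalised reads in intact, from 10.8 through 16.8 to 28.3 in AAV-GFP and from 0 through 2.88 to 19.1 in AAV-SIRT3 libraries. In AAV-GFP 5 of 6 libraries were above the highest intact library, and in AAV-SIRT3 4 of 6 were below the lowest AAV-GFP library, 2 of them at 0 reads. Even so the tests over all genes were not passed, with a log2 difference of 1.51 for AAV-GFP against intact (95% interval 0.01 to 3.01, limma adjusted p = 0.258; exact two-sided permutation p = 0.00433). For AAV-SIRT3 against AAV-GFP the difference was -2.31 (95% interval -3.81 to -0.81, limma adjusted p = 0.160; exact two-sided permutation p = 0.0216). For AAV-SIRT3 against intact tissue it was -0.79 (limma adjusted p = 0.462). Whether Ccl2 and Ccl12 respond differently to the vectors was not tested.

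Ccl3 and Ccl4 (MIP-1 alpha and beta), of which Ccl3 is a ligand of Ccr1, are chemokines of activated microglia and macrophages. Ccl3 ran from 6.40 through a median of 10.3 to 25.4 normalised reads in intact libraries, from 14.7 through 34.0 to 47.7 in AAV-GFP and from 18.4 through 27.4 to 31.5 in AAV-SIRT3. Intact replicate 2, at 25.4, was the one intact library above 12.5, and without it the intact range would not have overlapped that of either vector group. The rise was 1.46 in AAV-GFP (SE 0.31, limma adjusted p = 0.0206; exact two-sided permutation p = 0.00433) and 1.21 in AAV-SIRT3 (SE 0.31, limma adjusted p = 0.00916; exact two-sided permutation p = 0.00649). Between the vector groups the log2 difference was -0.25 (95% interval -0.90 to 0.40, limma adjusted p = 0.748). The AAV-SIRT3 call held with any 1 of the 18 libraries left out. In the limma fit over all genes above 0 its adjusted p was 0.0284, and it held in 12 of 18 such fits. The AAV-GFP call was lost without intact replicate 3, intact replicate 4 or AAV-GFP replicate 5 (limma adjusted p = 0.0568, 0.0532 and 0.0541), in a fit of these groups alone (0.0563) and in the fit over all genes above 0 (0.0564). The highest Ccl3 values of the intact and AAV-GFP groups, 25.4 and 47.7, came from the pair of libraries with high choroid plexus markers. With both left out, Ccl3 rose by 1.58 in AAV-GFP (limma adjusted p = 0.0184) and by 1.45 in AAV-SIRT3 (limma adjusted p = 0.00328).

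Ccl4 was at the floor in intact tissue, with 12 reads over 6 libraries, against 83 in AAV-GFP and 20 in AAV-SIRT3. Its normalised reads ran from 0 through a median of 1.54 to 4.88 in intact, from 3.17 through 14.6 to 22.7 in AAV-GFP and from 1.08 through 2.81 to 5.95 in AAV-SIRT3 libraries. AAV-GFP replicate 1, at 3.17, was the one AAV-GFP library inside the range of the other groups. In the limma fit over all genes above 0, where 0.426% of genes passed in this comparison, Ccl4 rose by 2.32 in AAV-GFP over intact tissue (SE 0.50, adjusted p = 0.0392; exact two-sided permutation p = 0.00433). That call was weak, as it held in 2 of the 18 fits with a library left out, with adjusted p up to 0.116, and was lost in a fit of these groups alone (adjusted p = 0.138) and without the 2 libraries high in choroid plexus markers (adjusted p = 0.137). AAV-SIRT3 against AAV-GFP gave -1.66 (limma adjusted p = 0.244; exact two-sided permutation p = 0.00866), and AAV-SIRT3 against intact 0.66 (limma adjusted p = 0.525).

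**Figure D3:**
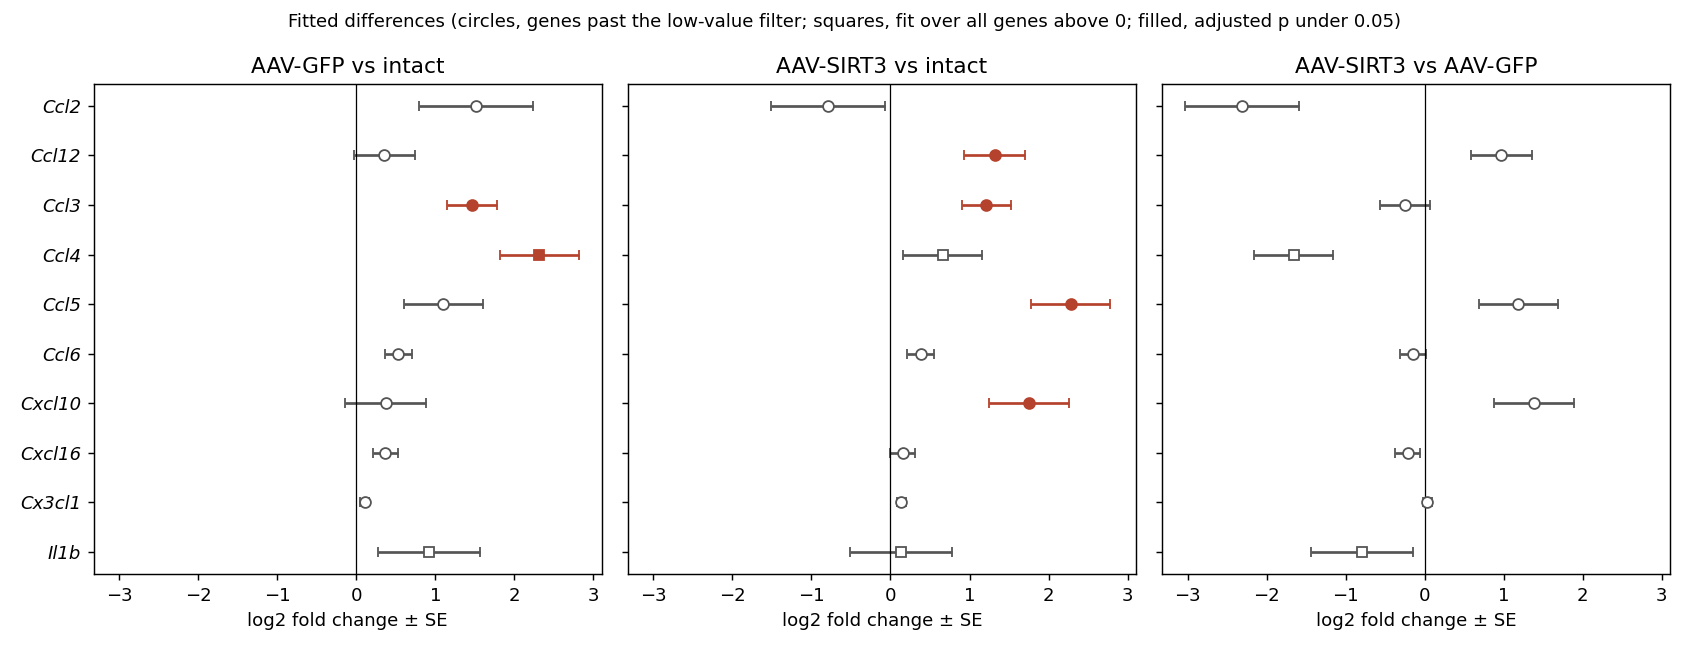
Fitted log2 fold changes of log2(value + 1) with their standard errors for the 10 genes in 3 comparisons, as circles from the fit over 19442 genes and squares from the fit over 38539 genes for Ccl4 and Il1b. Filled symbols have an adjusted p under 0.05: Ccl3 and Ccl4 in AAV-GFP against intact, Ccl12, Ccl3, Ccl5 and Cxcl10 in AAV-SIRT3 against intact, and none in AAV-SIRT3 against AAV-GFP.

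Ccl6, a ligand of Ccr1 that microglia and macrophages transcribe without stimulation, ran from 55.3 through a median of 65.8 to 94.7 normalised reads in intact, from 64.8 through 100.2 to 131 in AAV-GFP and from 70.5 through 89.1 to 107 in AAV-SIRT3 libraries. The groups overlapped, although 4 of 6 AAV-GFP libraries were above all intact ones. The log2 difference from intact tissue was 0.53 in AAV-GFP (95% interval 0.18 to 0.88, limma adjusted p = 0.0918) and 0.38 in AAV-SIRT3 (95% interval 0.03 to 0.73, limma adjusted p = 0.110). DESeq2 gave an adjusted p of 0.0371 for AAV-GFP against intact tissue, and without AAV-GFP replicate 6 limma gave 0.0411. Between the vector groups the difference was -0.15 (95% interval -0.50 to 0.20, limma adjusted p = 0.720).

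Cxcl16, a membrane-bound ligand of Cxcr6, ran from 91.8 through a median of 117 to 140 normalised reads in intact, from 117 through 149 to 192 in AAV-GFP and from 108 through 118 to 215 in AAV-SIRT3 libraries. AAV-SIRT3 replicate 6, at 214.9, was the highest of all 18 libraries, while the other AAV-SIRT3 libraries lay between 108 and 119, within the intact range. The log2 difference from intact tissue was 0.37 in AAV-GFP (95% interval 0.04 to 0.70, limma adjusted p = 0.211) and 0.15 in AAV-SIRT3 (95% interval -0.18 to 0.49, limma adjusted p = 0.531). Without replicate 6 the AAV-SIRT3 difference from intact was 0.0042, with a limma adjusted p of 0.987. The same library left out gave -0.36 for AAV-SIRT3 against AAV-GFP (limma adjusted p = 0.279), compared with -0.22 (limma adjusted p = 0.543) over all libraries.

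Cx3cl1 ran from 13175 through a median of 15746 to 17247 normalised reads in intact, from 15510 through 16961 to 17289 in AAV-GFP and from 15519 through 17000 to 18052 in AAV-SIRT3 libraries. Its coefficient of variation was 10.7% in intact, 4.36% with AAV-GFP and 5.35% with AAV-SIRT3, the lowest of the 10 genes in each group. The intact values fell into 2 sets, with 13175, 14474 and 14659 in replicates 1, 3 and 5, which had the low thalamus sums, and 16833, 16887 and 17247 in replicates 2, 4 and 6. Pan-neuronal markers summed to 349987 to 390991 in intact, 353414 to 374455 with AAV-GFP and 362507 to 392924 with AAV-SIRT3. The log2 difference from intact tissue was 0.11 in AAV-GFP (95% interval -0.01 to 0.23, limma adjusted p = 0.315) and 0.14 in AAV-SIRT3 (95% interval 0.02 to 0.26, limma adjusted p = 0.0886). It passed in limma for AAV-SIRT3 only without intact replicate 6 (adjusted p = 0.0399). With intact replicates 1, 3 and 5 left out these differences were -0.03 and 0.0028. Between the vector groups it was 0.03 (95% interval -0.09 to 0.15, limma adjusted p = 0.843).

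Il1b had 23 reads over the intact, 44 over the AAV-GFP and 25 over the AAV-SIRT3 libraries. It ran from 0 through a median of 3.83 to 7.25 normalised reads in intact, from 0.982 through 7.61 to 14.8 in AAV-GFP and from 0 through 4.37 to 10.1 in AAV-SIRT3 libraries, and all groups overlapped. The exact two-sided permutation p was 0.195 for AAV-GFP against intact, 0.864 for AAV-SIRT3 against intact and 0.262 for AAV-SIRT3 against AAV-GFP. In the limma fit over all genes above 0 none of these comparisons passed, and the log2 difference for AAV-GFP against intact was 0.92 (SE 0.65, adjusted p = 0.630). Of 13 genes of the inflammasome and IL-1 processing, 12 were in the fit and 1 passed the test, in AAV-SIRT3 against intact: P2rx7, the ATP-gated channel that opens ahead of inflammasome activation, fell by 0.24 on the log2 scale (limma adjusted p = 0.0383). That is 1 of 12, where 21.7% of all genes passed, and the call held in 11 of 18 fits with a library left out. Il1r1, the receptor of the cytokine, averaged 289, 308 and 249 normalised reads in intact, AAV-GFP and AAV-SIRT3 tissue and passed in no comparison.

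Leaving out intact replicates 1, 3 and 5, the libraries with low thalamus markers, left 3 intact mice and changed several calls. Among the 8 genes, 1 of the 4 calls in AAV-SIRT3 against intact tissue was kept, that of Ccl5 at 2.20 (limma adjusted p = 0.0284). Ccl5 was in that fit only through AAV-GFP and AAV-SIRT3 libraries, as no intact library reached the minimum. Cxcl10 gave 1.86 (adjusted p = 0.0648), Ccl12 0.84 (adjusted p = 0.172) and Ccl3 0.88 (adjusted p = 0.131) in that limma fit. In AAV-GFP against intact tissue Ccl3 gave 1.12 (limma adjusted p = 0.283). The loss of mice and the lower thalamus share cannot be told apart as the source of these shifts. This split was chosen after the marker sums had been seen.

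Because none of the 8 genes passed in AAV-SIRT3 against AAV-GFP, the comparison was also made without adjustment and with other tools. At an unadjusted limma p under 0.05, 4 of 8 passed, Ccl2 lower and Ccl5, Ccl12 and Cxcl10 higher, where 15.2% of all genes passed. Ccl2 and Ccl5 had met the minimum for the fit mostly through the vector group where they were higher, so that count is no test either. EdgeR passed none of the 8 (0.123% of all genes), and DESeq2 none of the 3 for which it gave an adjusted p. DESeq2 passed 1.59% of all genes, a share whose total includes genes without an adjusted p. In AAV-GFP against intact tissue all 10 genes had a positive log2 difference. Their median was 0.73, with Ccl4 and Il1b, which were outside the main fit, included. Over the 8 genes in the main fit it was 0.45, against 0.00 over all genes of that fit. Without the low-thalamus intact libraries Ccl12 and Cx3cl1 were negative. In AAV-SIRT3 against intact tissue the median of the 10 was 0.52 and that of the 8 was 0.80, with Ccl2 alone negative. The sign of Il1b was reversed without the low-thalamus libraries. The share of all genes with a positive difference was not set beside these counts.

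The chemokines that were highest in AAV-SIRT3 tissue were set beside genes of the interferon response. The summed normalised reads of 16 such genes ran from 3664 through a median of 3880 to 4568 in intact, from 3580 through 4133 to 4668 in AAV-GFP and from 5016 through 5595 to 12815 in AAV-SIRT3 libraries. All AAV-SIRT3 libraries were above all others. Of the 16 genes 12 rose in AAV-SIRT3 over intact tissue, where 11.3% of all genes were higher, and 11 did without AAV-SIRT3 replicate 6. With the low-thalamus intact libraries left out 9 did, where 871 of 19442 genes were higher. The list was chosen with earlier results of these data known, so its share beside that of all genes is no test. Over AAV-GFP, where 0.113% of all genes passed, Ifit3 and Oasl2 rose by 1.03 and 1.22 on the log2 scale (limma adjusted p = 0.0487 for both), and by 0.79 and 0.94 without replicate 6 (limma adjusted p = 0.0179 and 0.0197). Both calls held in 5 of 18 fits with a library left out, and the number of the 16 genes called ran from 0 to 9 (without AAV-GFP replicate 2). None of the 16 passed in AAV-GFP against intact tissue. AAV-SIRT3 replicates 6 and 4 had the highest interferon sums, 12815 and 7731, and also the highest Cxcl10 (156 and 94.2) and Ccl12 (68.6 and 45.6) of all libraries. For Ccl5 the highest libraries were replicates 6 and 3, and for Cxcl16 replicate 6 alone stood above the other AAV-SIRT3 libraries.

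**Figure D4:**
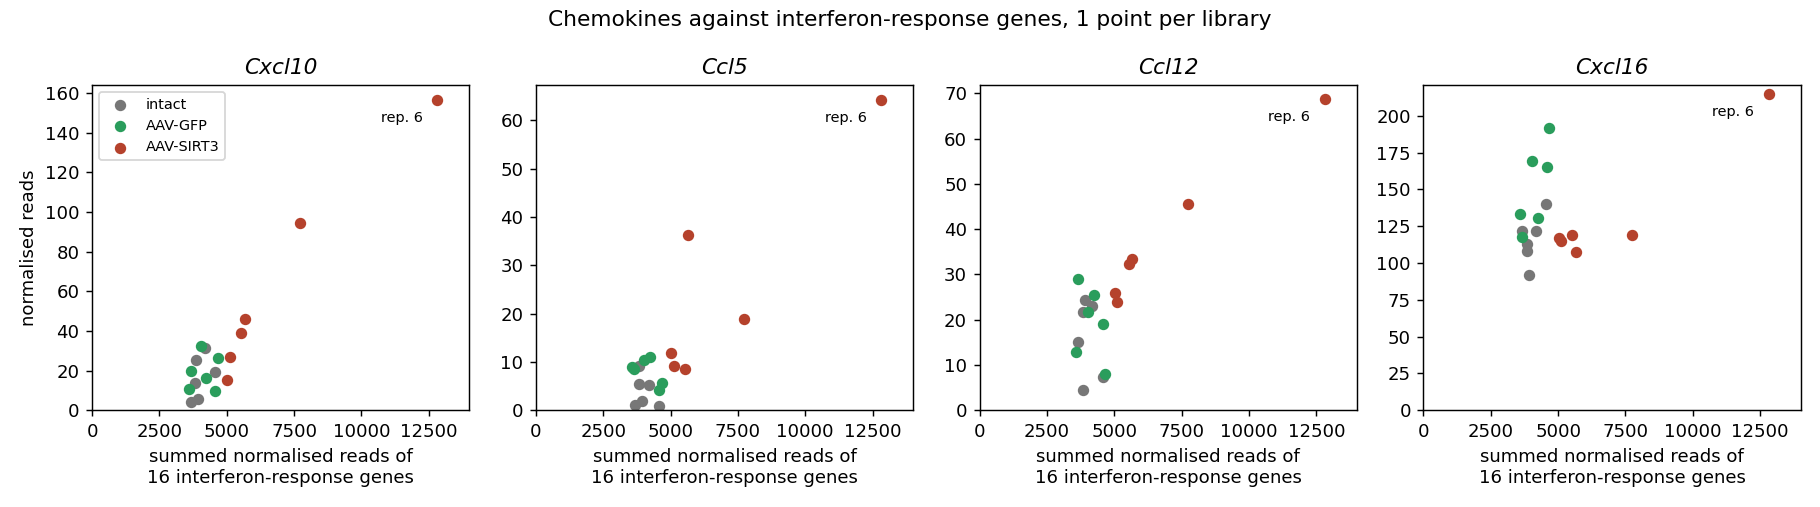
Normalised reads of Cxcl10, Ccl5, Ccl12 and Cxcl16 against the summed normalised reads of 16 interferon-response genes, with 1 point per library and both axes linear from 0. AAV-SIRT3 libraries lie to the right of all others, from 5016 to 12815, and replicate 6 is the highest point in each panel.

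Markers of the cells that make or answer these chemokines were summed in the same way. Microglial markers (12 genes) summed to 18308 to 20840 in intact, 19523 to 23120 with AAV-GFP and 19155 to 20400 with AAV-SIRT3. Of these 12, 3 rose in AAV-GFP over intact tissue, where 0.823% of all genes were higher: Aif1, Trem2 and Fcrls, by 0.47, 0.56 and 0.36. In AAV-SIRT3 over intact tissue 4 rose, where 11.3% of all genes were higher: Aif1, Tmem119, Itgam and Trem2. Of these 4, Aif1 and Tmem119 passed without AAV-SIRT3 replicate 6. The calls of Aif1 in AAV-GFP and of Itgam in AAV-SIRT3 each held in 12 of 18 fits with a library left out. Reactive astrocyte markers (8 genes) summed to 18123 to 26589 in intact, 24049 to 44142 with AAV-GFP and 18875 to 26869 with AAV-SIRT3, with medians of 21974, 31571 and 21538. Of these 8, Gfap, Serpina3n and C3 rose in AAV-GFP over intact tissue, by 0.50, 0.89 and 1.31 on the log2 scale. The Gfap call held in 10 of 18 fits with a library left out. Serpina3n and C3 fell by 0.88 and 1.32 in AAV-SIRT3 against AAV-GFP, where 0.113% of all genes passed. The marker lists were chosen with earlier results of these data known, so their counts beside such shares are no test. Lcn2 rose by 2.89 in AAV-SIRT3 over intact tissue (SE 1.02, limma adjusted p = 0.0474), a call that held in 7 of 18 fits with a library left out. T and NK cell markers (12 genes) summed to 232 to 300, 275 to 422 and 267 to 388, and none of the 5 in the fit passed in any comparison. Neutrophil markers summed to 11.8 to 168 normalised reads over the 18 libraries. With the low-thalamus intact libraries left out, 0 of the microglial and 1 of the reactive astrocyte markers (Serpina3n) rose in AAV-GFP over intact tissue. The part of these cells in the chemokine values was not tested.

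Receptors of the 10 gene products were also read. Cx3cr1, the microglial receptor of fractalkine, averaged 2564 ± 205 (SD, n = 6) normalised reads in intact, 2925 ± 193 with AAV-GFP and 2657 ± 127 with AAV-SIRT3, with a log2 difference of 0.19 for AAV-GFP against intact (limma adjusted p = 0.0615). Ccr2 averaged 55.2, 54.4 and 53.7 normalised reads and Ccr1 15.1, 14.9 and 13.2. Neither passed in any comparison. Cxcr3, at 3.94, 2.90 and 5.32, and Cxcr6, at 7.40, 8.73 and 8.99, were under the minimum for the fit.

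A wider list of 136 other ligands, receptors, cytokines and signalling genes had 96 genes in the fit. In AAV-SIRT3 against intact tissue 4 rose and 6 fell, 10 of 96 where 21.7% of all genes passed. The macrophage cytokine Mif rose by 0.26 (limma adjusted p = 0.00336), the atypical receptor Ackr1 by 0.21, the interferon gamma receptor subunit Ifngr1 by 0.20 and the chemokine Ccl27a by 0.19. The death ligand Tnfsf10 fell by 0.45, the NF-kB subunit Rel by 0.38 (limma adjusted p = 0.0119), the chemokine Ccl25 by 0.38 (limma adjusted p = 0.00361), P2rx7 by 0.24, the shared IL-6 receptor subunit Il6st by 0.23 and the type I interferon receptor subunit Ifnar1 by 0.18. The calls of Tnfsf10, Ackr1 and P2rx7 held in 4, 9 and 11 of 18 fits with a library left out, and the other 7 held in all 18. In AAV-GFP against intact tissue, where 1.84% of all genes passed, 1 rose, Ifngr1, by 0.19 (limma adjusted p = 0.0465, held in 6 of 18 fits with a library left out). In AAV-SIRT3 against AAV-GFP none passed in limma. The median log2 difference of the list was -0.01, 0.07 and -0.09 in these comparisons, and within 0.01 of 0 over all genes in the fit. Adam10 and Adam17, the proteases that release Cx3cl1 and Cxcl16 from the membrane, passed in none. Cxcl15, Cxcr1 and Csf2 were at 0 reads in all 18 libraries.

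Each gene in the fit was also set against the 15244 other genes with a mean of at least 50 normalised reads, with group means removed, over 18 libraries that differ in depth and dissection. The values most like those of Cx3cl1 were Prmt8 (Pearson r = 0.94), Shank3 (0.93) and Nell2 (0.93). For Cxcl16 they were Trim12a (0.92), Rnf213 (0.90) and the interferon-induced Isg15 (0.84), and without AAV-SIRT3 replicate 6, which lies far from the rest, these became 0.84, 0.78 and 0.63. For Cxcl10 they were Zfp947 (0.84), Pgam2 (0.80) and Slco2b1 (0.79), and for Ccl5 Rsl1 (0.84), Isg20l2 (0.84) and Irf2bp2 (0.81). Ccl2 was most like Pqlc3, Ccnd3 and Sdc1 (0.80 each), Ccl3 most like Cep63 (0.77), Mdfic (0.77) and Taf1d (0.75), Ccl6 most like Frzb (0.77), Pkmyt1 (0.73) and Mcmbp (0.73), and Ccl12 most like Gm26737 (0.70), Ano5 (0.69) and Cyp2j6 (0.69). These are the 3 highest of 15244 values for each gene, so they describe the libraries and carry no test.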

How the data were processed

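RNA from the substantia nigra of 18 mice, 6 per group, was sequenced, and groups were taken from the sample titles. The authors deposited a signal for each gene, which the name of their table describes as HTSeq counts normalised with DESeq2. HISAT2 2.1.0, DESeq2 1.34.0 and mm10 appear in the submitters' processing notes. The annotation and strand setting are not given in the sources used here. Multiplied by 1 size factor per library, 100% of values above 0 came out as whole reads (within 1e-06 reads). All 18 columns were matched to samples, 0 were not. A row that names no gene held at most 0.000289% of reads and was left out.

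The main test was limma 3.58.1 in R 4.3.3, with a trend, on log2(value + 1) with 3 groups in 1 model, Benjamini-Hochberg adjusted over 19442 genes with at least 10 normalised reads in at least 6 libraries. Exact two-sided permutation tests compared 6 with 6 libraries (smallest p 0.00216), 30 in all. Alternatives were 18 fits with a library left out, 9 other settings, among them count tests on the recovered reads (DESeq2 1.42.0 and edgeR 4.0.16), and 2 added after the data were seen. On simulated counts with 200 of 19442 genes changed between AAV-SIRT3 and AAV-GFP, limma called 168, with 6 false calls. The simulation gave every gene the same dispersion and had no outlying libraries or dissection differences. It therefore does not show how often changes of low and variable genes, as most of the 10 are, would be called. Replicates differed beyond sampling noise in every pair (chi-square per degree of freedom 8.26 to 37.2). The 10 genes and the lists were chosen with earlier results of these data known. All 10 genes were named, with wider-list genes past the threshold (at most 12 per comparison), known receptors, and the 3 most alike genes. An item of the wider list is not reported here. Positions and exon lengths came from GENCODE M21 by symbol (49189 of 55269 genes matched).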

Additional observations from a re-analysis of the deposited data

Results flagged for a closer look

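In 78 groups of 6 libraries tested for a single distant value (Dixon's 95% limit), 3 were past the limit, where chance gives about 1 in 20, or 3.9. Ccl3 was 25.4 normalised reads in intact replicate 2, with the next intact library at 12.5. Cxcl16 was 214.9 in AAV-SIRT3 replicate 6, with the next at 119. Il6st was 9104 in intact replicate 4, with the next at 8690.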

How the results depend on the processing

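With another setting, the count of the 8 genes past the threshold in AAV-GFP against intact tissue moved from 1 to 0 for genes with a mean of at least 50, in a fit of these groups alone, with the low-thalamus intact libraries left out and in the fit over all genes above 0, where Ccl4 was the 1 gene called. It ran from 0 to 2 with a library left out. In AAV-SIRT3 against intact tissue the count of 4 became 0 at a mean of at least 50, which leaves 3 of the genes to test, and 1 with the low-thalamus intact libraries left out. It ran from 2 (without AAV-SIRT3 replicate 6) to 5. In AAV-SIRT3 against AAV-GFP the count stayed at 0 in all alternatives. For the wider list, the count in AAV-SIRT3 against AAV-GFP went from 0 to 4 in DESeq2 and from 0 to 4 (without AAV-GFP replicate 2) with a library left out. In AAV-GFP against intact tissue the list count of 1 was 6 in DESeq2, 0 with TMM factors, in edgeR, with all genes above 0, in a fit of these groups alone and with the low-thalamus or the high-choroid libraries left out, and 0 to 4 (without AAV-GFP replicate 6) with a library left out. In AAV-SIRT3 against intact tissue the list count of 10 was 7 to 11, and 5 with the low-thalamus libraries left out.

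Reversed signs were all of values that passed no test. Il1b in AAV-SIRT3 against intact tissue ran from -0.25 to 0.53 with a library left out and was -0.0023 with the low-thalamus libraries left out. In AAV-GFP against intact tissue that setting gave -0.13 for Ccl12, -0.028 for Cx3cl1, 0.30 for Ccr2 and -0.00279 for Il1r1, and 0.28 for Ccr2 in AAV-SIRT3 against intact. With a library left out, Ccr2 ran from -0.27 to 0.12 in AAV-SIRT3 against AAV-GFP (0.091 without the high-choroid libraries), -0.23 to 0.15 in AAV-GFP against intact and -0.31 to 0.025 in AAV-SIRT3 against intact, Ccr1 from -0.32 to 0.13 and Il1r1 from -0.042 to 0.15 in AAV-GFP against intact. The cause was not tested. Over all genes, AAV-SIRT3 against AAV-GFP gave 22 calls, 309 in DESeq2, 8 in a fit of these groups alone, 13 with the replicate block, 861 without AAV-GFP replicate 2 and 5 without AAV-SIRT3 replicate 5. AAV-GFP against intact gave 358, 999 in DESeq2, 164 over all genes above 0, 199 in a fit of these groups alone and 129 to 686 with a library left out. No label says what the replicate numbers mark. With group means removed, libraries of the same number showed little likeness (correlations from -0.0953 to 0.175, 1 of 18 over 0.1). Such correlations cannot show that no day or litter was shared. The replicate block left the counts of the 8 genes at 0, 1 and 4. DESeq2 gave no adjusted p for the low genes in some comparisons.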
